A study of Drosophila melanogaster with 10 samples.

Results

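Control salivary glands were compared with control Kc cells, a tissue against a cell line of the fruit fly Drosophila melanogaster. The 5 arrays compared were chosen by their titles from 10 in all. They were 3 arrays of glands with RNAi against Nautilus (nau) and 2 arrays of Kc cells with RNAi against GFP, and the other 5 arrays carried RNAi against the linker histone H1. Transcripts were measured in biotin-labelled total RNA on Affymetrix arrays, and every level given here is log2 of the deposited intensity of a probe set. The glands came from flies in which Tub-Gal4, a driver active in all tissues, expressed the RNAi against nau, a myogenic transcription factor gene. Crosses were kept at 18 °C and the animals were moved to 29 °C as embryos to start the knockdown. Kc, an established cell line that derives from embryos and resembles haemocytes, grew at 25 °C in medium with 10% fetal serum. Per the labels they met dsRNA against GFP, which is not a fly gene, on days 0, 2 and 4, each time in serum-free medium for 1 hour, and gave RNA on day 6, whereas the series record speaks of a single treatment. The tissue, the RNAi target, the way RNAi was delivered and the temperature all differed between the groups, so their parts in a difference cannot be told apart. The stage and sex of the larvae and the number of animals pooled per array are not given in the sources used here. Nor is it stated whether arrays of 1 group hold separate cultures or dissections, and p-values reflect only the array-to-array spread, which may be technical.

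The larval salivary gland is a secretory epithelium whose cells stop dividing in the embryo and then copy their DNA without mitosis, which gives polytene chromosomes. Late in larval life, under the steroid hormone ecdysone, it makes the Sgs glue proteins, highly glycosylated mucins and small partners that fix the pupal case to its support. Kc cells divide without a tissue context, and haemocytes, the blood cells they resemble, take up microbes and dying cells and secrete basement membrane. RNA of a whole dissected tissue can include adhering cells, and in such samples fewer cells of a type and less RNA per cell cannot be told apart.

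Over all probe sets the arrays of a group were close to each other. The correlation was r = 0.9983 between both Kc arrays, from 0.9909 to 0.9937 among gland arrays, and from 0.826 to 0.836 across the groups. The pooled standard deviation of a probe set was 0.114 in Kc cells and 0.238 in glands. The background level was the 95th percentile, 3.55, of 17 Tag probe sets that match nothing in the fly. The top of the scale was 14.14 to 14.34 per array, and the most abundant transcripts may be compressed there, which was not tested. The excess of 3' over 5' signal in control transcripts, which grows as RNA degrades or labelling stops early, was larger in glands, at 1.91 ± 0.10 (SD, n = 3) against 0.44 ± 0.06 (SD, n = 2) on the log2 scale for actin. It was 2.13 ± 0.05 against 0.83 ± 0.01 for GAPDH and 2.17 against 0.56 for eIF-4a. The control probe set for 18S ribosomal RNA, which is not a messenger RNA, was 11.84, 11.98 and 11.98 in glands and 6.05 and 7.96 in Kc cells, so that it also set both Kc arrays apart from each other. The part of these signs of RNA quality or labelling in the differences below was not tested.

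The target named in the gland labels differed little. The level of nau was 6.02, 5.54 and 5.50 in the 3 gland arrays and 5.90 and 6.02 in the Kc arrays. These ranges overlapped, and the difference of -0.27 (standard error 0.158) did not pass in limma (adjusted p = 0.16). Since Kc cells were not treated against nau, this does not check the knockdown.

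A gene was called when its estimated difference was at least 2-fold and its limma p, adjusted by Benjamini-Hochberg over 18769 probe sets, was under 0.05. Of 11982 named genes 1514 were higher in glands (12.6%) and 2665 were higher in Kc cells (22.2%), and list counts are to be read against these shares. In all 34.9% were called, and 59.5% passed the adjusted p alone. The median difference over all named genes was -0.04. The arrays of the groups did not overlap for 74.0% of the named genes. This held for all 1514 gland-high and all 2665 Kc-high genes, so for a called gene it adds nothing to the call. Of the probe sets 10.1% were higher in glands and 17.8% in Kc cells (27.9% in all), 51.2% passed the adjusted p alone and 68.1% did not overlap. The median size of a called difference was 2.31 for gland-high and 1.86 for Kc-high genes. At least a 32-fold difference was estimated for 281 of the gland-high genes and for 82 of the Kc-high genes. The Kc mean was at background, at or under 3.55, for 302 of the gland-high genes, of which 45 also exceeded a level of 10 in glands. The gland mean was at background for 162 of the Kc-high genes, and 7 of these exceeded 10 in Kc cells. For called genes of the lists and of the ranking, a difference is given as a bound ("at least") where every array of a group lay at or under 3.55. For 15 other called genes named by rule only some arrays of a group did, and raising those values to 3.55 moved the difference by at most 0.33. Of the genes named by rule, 22 have several probe sets, and for 17 of these at least 1 other probe set was not called. Among them Dscam1 (3.67), Pgant9 (3.45), Tl (4.74) and brp (3.77) had uncalled probe sets with levels of at most the value in brackets.

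**Figure D1:**
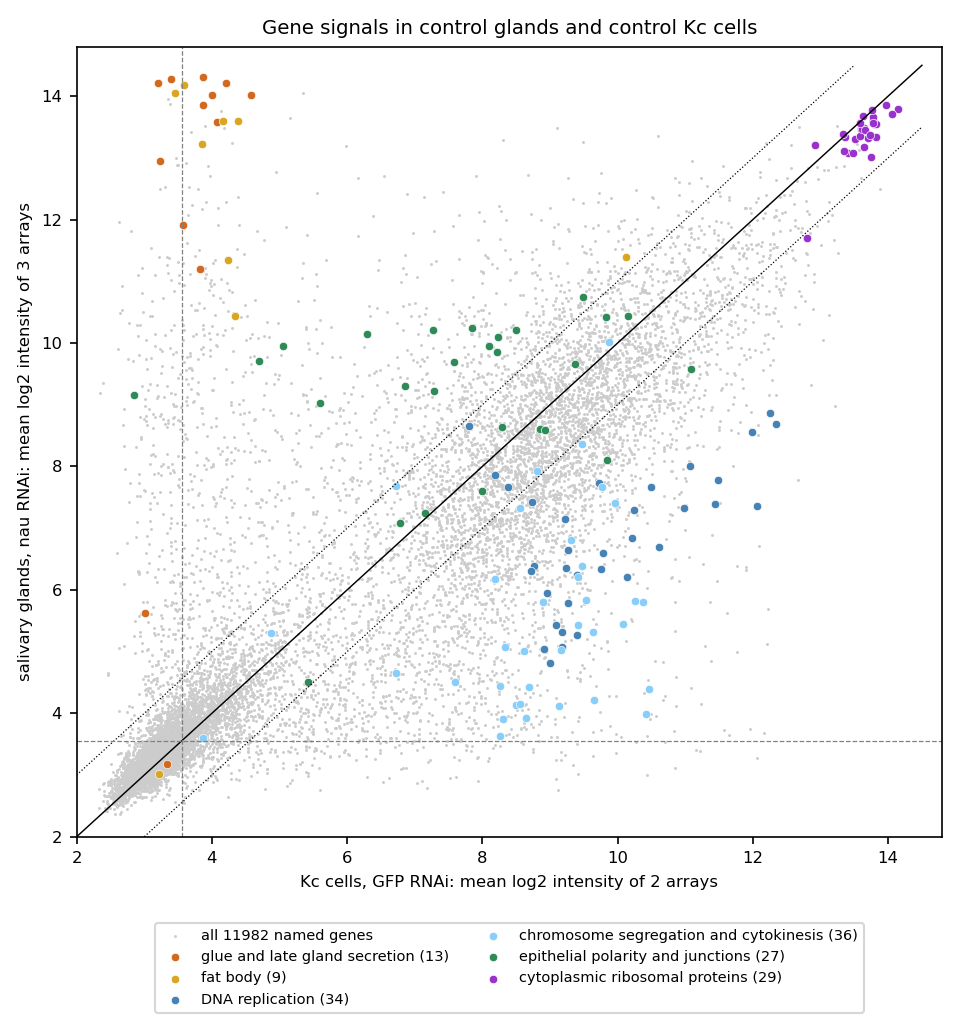
Mean log2 intensity of each named gene in 2 control Kc arrays (x) and 3 control gland arrays (y), with members of 6 gene lists in colour. The solid line marks equal level, the dotted lines a 2-fold difference and the dashed lines the 95th percentile of the Tag controls (3.55). Most glue and fat body genes stand at the upper left, most replication and segregation genes below the line, and most ribosomal protein genes on or near it at the top.

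Glue genes were among the genes with the largest differences. Sgs3, which encodes a mucin-like glue protein, was 14.14, 14.26 and 14.23 in glands and 3.27 and 3.14 in Kc cells. Sgs4 was 14.23, 14.29 and 14.32 against 3.39 and 3.40. All glands were near the top of the scale and both Kc arrays were at background for these genes, so the differences are bounds. Sgs3 was at least 10.66 higher (standard error 1.37, limma adjusted p = 6.39e-05) and Sgs4 at least 10.72 higher (0.385, 6.15e-09) on the log2 scale. The wide error of Sgs3 comes with a spread that the fit takes from all 10 arrays, while its 3 gland arrays here lay close together. Sgs7 (10.45), Sgs8 (10.01) and Sgs5 (10.01), which encode smaller glue proteins, stood at 14.00 to 14.34 in every gland array and at 3.55 to 4.26 in Kc cells. They too lay at or near the top of the scale, so these values may understate the differences and their order is not read.

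Of 13 measured glue and late secretion genes 12 were higher in glands and none in Kc cells, with a median difference of 9.72. The exception was the mucin gene Muc68D, at background in all 5 arrays with a difference of -0.16 (adjusted p = 0.284). The ng genes, which encode small secreted gland proteins, spanned a wide range. Glands held ng3 at 13.96, 13.88 and 13.75 and ng1 at 13.08, 13.02 and 12.76, but ng4 at 5.66, 5.54 and 5.67. The difference of ng3 was 10.00, and that of ng1 was 9.72, or 9.39 with its 1 Kc array at background raised to 3.55. That gene sets the list median, which is 9.50 when all values under 3.55 are raised in this way. The gene ng4, chosen after its values were seen, was at least 2.07 higher. All 3 stood clear of the Kc arrays, where none exceeded 3.97.

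The ranking of differences covers probe sets with a single gene symbol, and 1 probe set without one lay among the largest, with means of 13.82 in glands and 3.09 in Kc cells (at least 10.27). Besides the Sgs genes, the 12 largest gland differences of named genes included genes with no established gland role or with no given name. CG14265 (at least 10.41), CG12310 (at least 10.31) and CG15404 (9.72) were among these. CG14265 was 13.98, 13.95 and 13.95 in glands and 3.47 and 3.21 in Kc cells, and CG12310 was 13.90, 13.85 and 13.84 against 3.45 and 3.30. The arrays within a group were close together for both genes.

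Several of these genes lie side by side in the RefSeq annotation, which was read for gene order only. Between CG14265 and Sgs4 on the X chromosome, the measured genes are in order CG14265, ng2, ng3, ng1, ng4, Pig1 and Sgs4, and all 7 were higher in glands. The runs described here were chosen after the values were seen. Pig1, the gene next to Sgs4, was 12.74, 12.67 and 12.70 in glands and 3.64 and 4.32 in Kc cells. Around CG12310 on 3L, 5 of 6 measured genes were higher in glands. EAChm, at background in both Kc arrays, was not called (fitted 0.93, limma adjusted p = 0.000924). CG18649 (9.29), CG13460 (9.30), CG13461 (7.32) and CG18581 (6.34) were the other measured members of that run. CG18581 was at background in Kc cells with 2.84 and 3.11, so its fitted difference is not exact. The run of Sgs8, Sgs7, CG33272 and Sgs3 on 3L was higher in glands throughout, with CG33272 at 5.35, 5.51 and 5.39 against 4.09 and 4.34. The difference of CG33272 was 1.20, next to differences of 10 or more on either side.

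**Figure D2:**
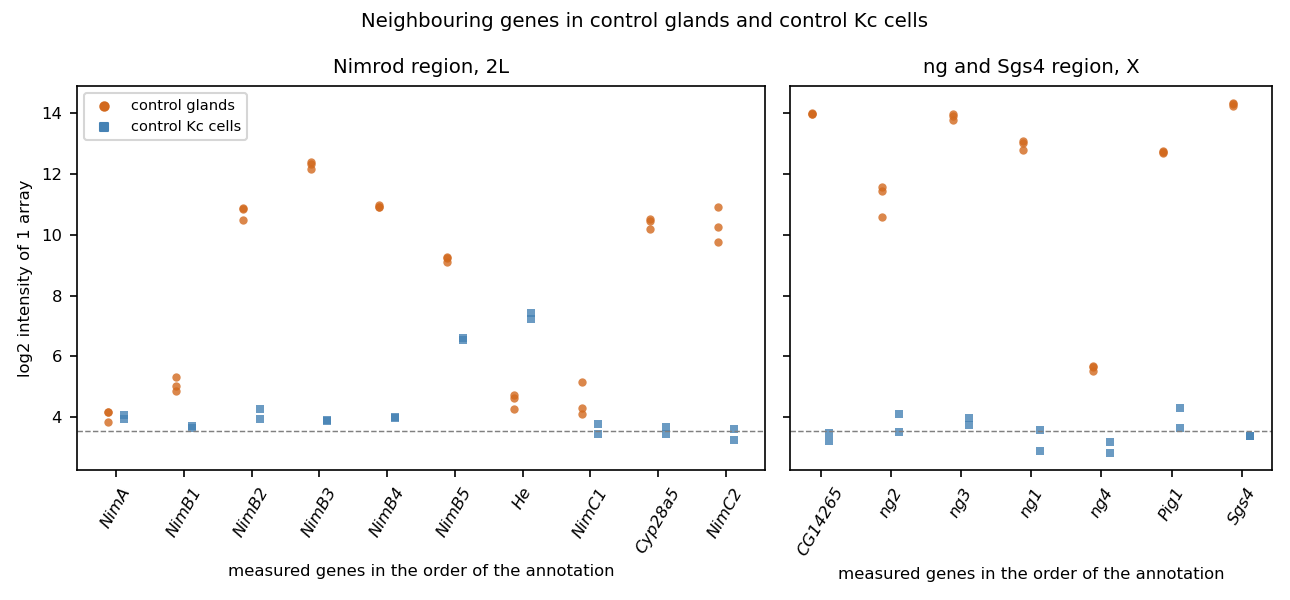
Log2 intensity in each control array for measured genes in the order of the annotation, in the Nimrod region of 2L (left) and in the region of the ng genes and Sgs4 on X (right), with 3 gland and 2 Kc arrays per gene and the 95th percentile of the Tag controls as a dashed line. All 7 genes of the right panel were higher in glands, while in the left panel He was higher in Kc cells among 7 genes that were higher in glands.

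The transcription factors of the gland were higher there to a smaller extent. Of 6 measured genes of this list 4 were higher in glands and none in Kc cells, with a median of 2.62. The bHLH factor gene sage was 12.28, 12.34 and 12.47 in glands and 7.07 and 7.19 in Kc cells, a difference of 5.23 (adjusted p = 1.16e-10). The forkhead factor gene fkh, which is needed to form the gland and to express the Sgs genes, was 9.64, 9.89 and 9.77 against 6.84 and 6.64, a difference of 3.02. Neither gene overlapped between the groups, and both lay above background in Kc cells. The zinc finger gene sens was at least 7.12 higher, from background in Kc cells. Scr, the Hox gene that specifies the gland in the embryo, was 5.03, 5.87 and 6.12 against 3.51 and 3.42, at least 2.12 higher. Of the genes of early gland formation, hkb (0.35) and rib (-0.19) lay at or under background in every array, and neither was called.

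Enzymes that modify secreted proteins showed the pattern gene by gene. The mucin glycosylation and prolyl hydroxylation list had 12 of 21 measured members higher in glands and 1 higher in Kc cells, with a median of 1.84. PH4alphaSG2 and PH4alphaSG1, which encode prolyl 4-hydroxylase subunits of the salivary gland, were at least 7.84 and 7.29 higher. PH4alphaSG1 was 11.01, 10.84 and 10.69 in glands against 3.38 and 3.51 in Kc cells. PH4alphaEFB, the prolyl hydroxylase gene of collagen-making cells, was measured at 9.61, 9.83 and 9.56 in glands and at 10.29 and 10.31 in Kc cells (-0.63, adjusted p = 0.000507) and so missed the 2-fold limit. The Pgant genes encode the enzymes that put the first sugar on mucins. Pgant9 was 12.04, 12.07 and 12.04 against 6.27 and 6.50 (5.66), and Pgant8 was at least 4.92 higher. C1GalTA, which adds the second sugar, was the member higher in Kc cells (-1.16, limma adjusted p = 0.0005). It was 7.32, 7.54 and 7.98 in glands and 8.74 and 8.81 in Kc cells, and quantile normalization removed its call (-0.77).

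General genes of the secretory pathway had smaller differences, and many missed the 2-fold limit. Of 27 measured genes of entry into the endoplasmic reticulum and folding 11 were higher in glands and 1 in Kc cells, with a median of 0.80. TRAM, a protein beside the translocation channel, had the largest difference, at 12.82, 12.75 and 12.68 in glands against 9.72 and 9.80 (2.99). Signal peptidase subunit genes followed with Spase25 (2.22), Spase22-23 (2.14) and twr (1.86). Sec61alpha, the channel itself, was 12.01, 11.94 and 11.89 against 11.65 and 11.61 (0.31, adjusted p = 0.0125), below the 2-fold limit. The chaperone gene Hsc70-3 (0.65) also missed it. Ero1L, which encodes an oxidase that drives disulphide formation, was higher in Kc cells (-1.42).

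Of 26 measured genes of COPII and COPI transport vesicles 10 were higher in glands and 2 in Kc cells, with a median of 0.62. Tango9 (2.91), Sec16 (2.60), a scaffold of COPII exit sites, and Surf4 (1.99), a cargo receptor, led the gland side. Sec16 was 10.49, 10.56 and 10.53 in glands and 7.88 and 7.98 in Kc cells, without overlap. The coat genes Sec13 (0.55), Sec31 (0.61), alphaCOP (0.52) and betaCOP (-0.02) missed the 2-fold limit. Tango5 was higher in Kc cells (-3.63), and so was eIF3m (-1.52), a translation initiation factor gene that the list holds under the name Tango7.

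**Figure D3:**
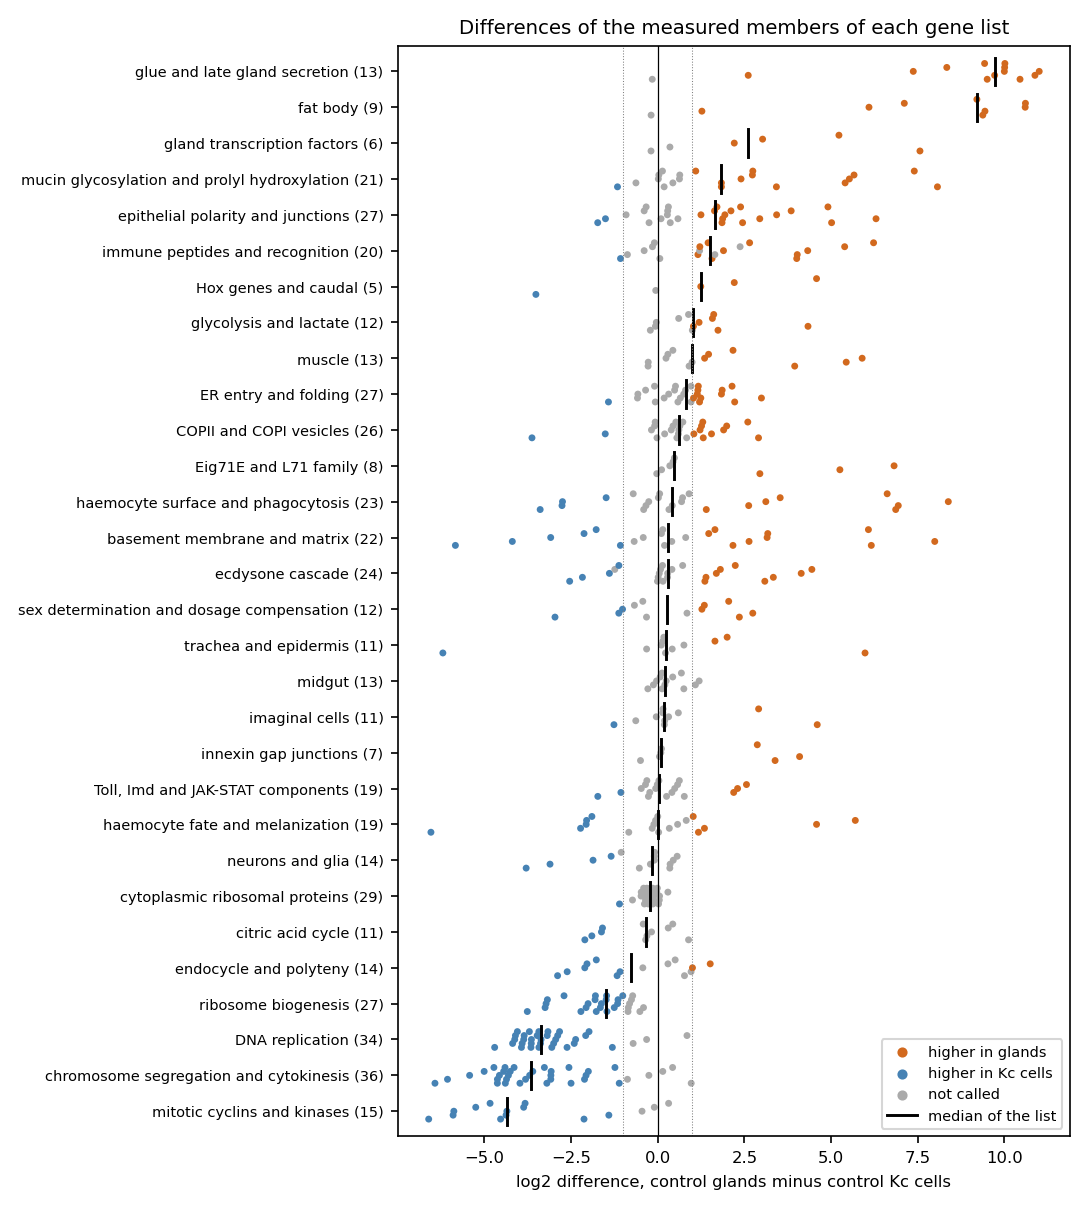
Log2 difference, glands minus Kc cells, of each measured member of the 30 gene lists (points) with the median of the list (bar) and the number measured in brackets. Colour shows the call, and the dotted lines mark a 2-fold difference. List medians run from 9.72 for glue genes to -4.35 for mitotic cyclins and kinases.

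Ecdysone acts through a receptor of EcR and usp and through a cascade of early and late factors. Of 24 measured genes of the cascade 9 were higher in glands and 4 in Kc cells, with a median of 0.28. The list holds 28 genes, and Eip74EF and Eip75B were among those not measured. EcR was 9.19, 9.53 and 9.53 in glands against 4.88 and 5.06 (4.45, adjusted p = 5.69e-09). The early factor gene br was 10.63, 10.43 and 10.66 against 6.46 and 6.41 (4.14). These arrays did not overlap. ftz-f1, which encodes a nuclear receptor that acts after the hormone pulse, was higher in Kc cells at 9.52 and 9.52 against 7.19, 6.69 and 7.04 (-2.54). The Kc-high side also held MsrA (-2.17) and Cth (-1.40), enzyme genes also named Eip71CD and Eip55E for their response to ecdysone, and ImpL2 (-1.12). Eip93F, a late factor of gland death, lay at background in all 5 arrays (-0.01, adjusted p = 0.949).

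Several of these genes spread widely among gland arrays, with array c highest. The nuclear receptor gene Hr4 was 6.01, 4.90 and 7.85 in arrays a, b and c and 2.96 and 2.89 in Kc cells, at least 2.70 higher (adjusted p = 0.0013). Eip78C was 5.69, 5.84 and 7.80 against 7.79 and 7.57 and was not called (-1.24, adjusted p = 0.0705), and only array c reached the Kc range. Eig71Eg, a member of the late Eig71E family of small secreted proteins, was 8.55, 6.19 and 9.15 against 2.71 and 2.71, at least 4.41 higher. Of 8 measured Eig71E genes of that list 3 were higher in glands and none in Kc cells, with a median of 0.46. Eig71Ea (at least 6.57) and Eig71Ed (at least 2.58) were the others, while Eig71Ef (0.48), Eig71Eh (0.44) and Eig71Ek (0.35) stayed at or near background. Eig71Ee, which is a glue gene and was counted there, was 13.53, 13.57 and 13.63 in glands. In the run of this family on 3L 5 of 10 measured genes were higher in glands, and CG43084, chosen after its values were seen, was 11.98, 11.92 and 11.99 against 2.48 and 2.78.

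Genes of cell division were higher in Kc cells almost throughout. Of 15 measured mitotic cyclin and kinase genes 12 were higher in Kc cells and none in glands, with a median of -4.35. The list holds 24 genes, and CycA, Cdk1, stg, polo and aurA were among those not measured. CycB, a cyclin that drives entry into mitosis, was 9.61 and 9.68 in Kc cells against 5.40, 5.32 and 4.60 in glands (-4.53, adjusted p = 1.19e-06). CycB3, another mitotic cyclin gene, was 9.27 and 9.16 against 3.77, 3.03 and 3.19. Of its gland arrays 2 were at background, so the fitted -5.88 is not exact, and with these at 3.55 it was -5.59. The groups did not overlap for either gene, and the gland mean of CycB3 was at background. fzy, the activator of the anaphase-promoting complex in mitosis, had the largest difference of the list (-6.61), with 10.61 and 10.54 in Kc cells. Its other 2 probe sets were not called, at levels of at most 3.81. The spindle checkpoint gene mad2 (-5.90) and the kinase gene aurB (-5.25) followed. Bub1, a checkpoint kinase gene, was 7.97, 7.89 and 7.99 in glands and 7.57 and 7.70 in Kc cells and missed the 2-fold limit (0.31, adjusted p = 0.0205).

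Chromosome segregation and cytokinesis showed the same direction in 31 of 36 measured genes, with none higher in glands and a median of -3.65. borr and Incenp encode parts of the chromosomal passenger complex with the kinase of aurB. borr was 10.40 and 10.43 in Kc cells against 4.07, 4.00 and 3.89 in glands (-6.43, adjusted p = 1.02e-08). Incenp was 10.47 and 10.46 against 4.79, 4.32 and 4.09 (-6.07). All 3 glands lay far below both Kc arrays for these genes. The cytokinesis gene tum (-5.43) and the spindle kinesin gene Klp67A (-5.01) were next. cal1, the loading factor of the centromeric histone, went against the list with 7.63, 7.70 and 7.73 in glands and 6.72 and 6.73 in Kc cells (0.96, adjusted p = 5.37e-06), just under 2-fold.

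DNA replication genes, which both mitotic cycles and endocycles use, were higher in Kc cells for 31 of 34 measured members, with none higher in glands and a median of -3.38. PCNA and Mcm2 are shown as well known members and were chosen after their values were seen. PCNA, the sliding clamp of the polymerases, was 12.28 and 12.21 in Kc cells against 9.06, 8.86 and 8.67 in glands (-3.38, adjusted p = 5.97e-09). The helicase subunit gene Mcm2 was 11.43 and 11.52 against 8.13, 7.80 and 7.40 (-3.70). RfC4, a clamp loader subunit gene, had the largest difference (-4.71), followed by Prim2 (-4.19) and PolA2 (-4.13), subunits of the priming polymerase, and Fen1 (-4.11). Cdc6, an origin licensing gene, was higher in every gland array at 8.82, 8.57 and 8.57 against 7.85 and 7.77 but missed the 2-fold limit (0.84, adjusted p = 0.000126).

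The endocycle list was divided. Of 14 measured members 2 were higher in glands and 7 in Kc cells, with a median of -0.76. ago, whose product marks cyclin E for destruction, was 10.38, 10.28 and 10.25 in glands and 8.76 and 8.81 in Kc cells (1.51). SuUR, which holds back replication in polytene chromosomes, was 7.56, 7.20 and 7.57 against 6.35 and 6.53, a difference of 1.00 at the 2-fold limit, and it lost the call at 0.91 without Kc array a and at 0.94 without gland array a or c. fzr, which switches cells from mitosis to endocycles, was higher in each gland array with 7.76, 7.93 and 8.03 against 6.98 and 6.91 but just missed the limit (0.96, adjusted p = 1.33e-05). Rif1 (-2.89), a partner of the protein of SuUR, l(2)dtl (-2.61) and the kinase genes Cdk2 (-2.11) and Cdk4 (-2.04) were higher in Kc cells.

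Few ribosomal protein genes but most genes that build ribosomes were called. The list holds 80 ribosomal protein genes, of which only 29 were measured. Of these 1 was called, RpL34a, higher in Kc cells (-1.10), and the median was -0.21. Nearly all were close to the top of the scale in both groups, where differences may be compressed. RpL32, often used as a reference gene, was 13.48, 13.45 and 13.45 in glands and 13.59 and 13.61 in Kc cells (-0.14, adjusted p = 0.158). Of 27 ribosome biogenesis genes 20 were higher in Kc cells and none in glands, with a median of -1.49. TAF1B, a factor of RNA polymerase I, led with -3.76. Fib, which encodes the methyltransferase fibrillarin of the nucleolus, was 11.53 and 11.46 in Kc cells against 8.89, 8.46 and 7.58 in glands (-3.19), with gland array c lowest. Nop60B (-3.25) and ppan (-3.22) had the same order of gland arrays, as array a was highest and array c lowest. The other probe set of Nop60B, at levels of at most 7.74, was not called.

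Of the markers that name Kc cells as haemocyte-like, some were higher in Kc cells and others were not called. Hml, the haemocyte gene of a clotting protein, was 12.21 and 12.25 in Kc cells against 5.61, 5.88 and 5.56 in glands (-6.54, adjusted p = 3.12e-09). He was 7.22 and 7.41 against 4.29, 4.63 and 4.75 (-2.76), and eater, a receptor for bacteria, was 7.06 and 7.23 against 4.01, 4.71 and 4.48 (-2.75). These 3 markers did not overlap and were higher in Kc cells. NimC1, a phagocytosis receptor gene of larval blood cells, was 3.77 and 3.47 in Kc cells against 4.10, 4.30 and 5.16 in glands and was not called (0.90, adjusted p = 0.0765). Pxn, srp, Col4a1 and vkg were clearly above background in both groups and were not called either. The GATA factor gene srp was 10.39, 10.77 and 10.76 in glands and 9.81 and 9.83 in Kc cells (0.82, adjusted p = 0.000238). It was higher in every gland array, below the 2-fold limit. Of the 8 haemocyte markers 3 were thus higher in Kc cells, none was higher in glands and 5 were not called. Over all named genes the shares were 22.2% higher in Kc cells and 12.6% higher in glands. A missing call does not show equal levels.

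**Figure D4:**
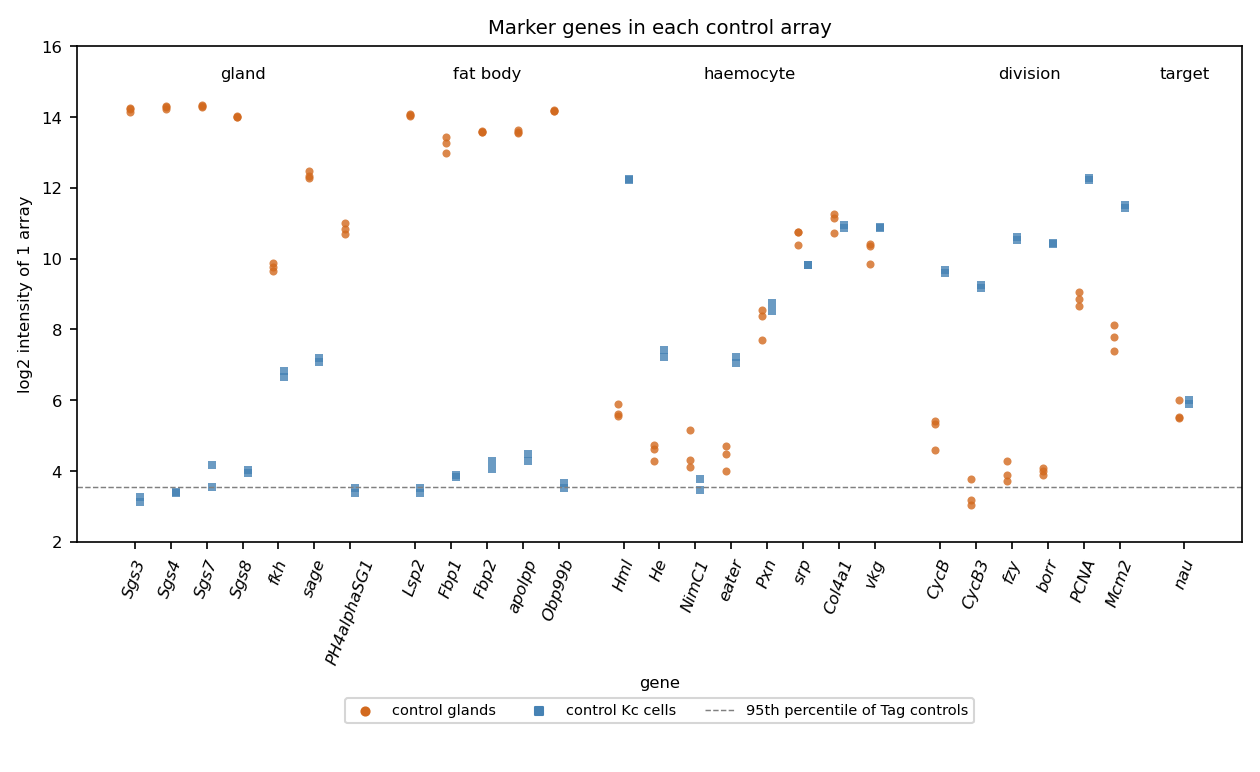
Log2 intensity of marker genes in each of 3 control gland arrays and 2 control Kc arrays, with the 95th percentile of the Tag controls (3.55) as a dashed line. Gland and fat body markers are high in glands and low in Kc cells except for fkh and sage, which are above background in both, while of 8 haemocyte markers Hml, He and eater are higher in Kc cells and NimC1 is low in both.

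Most Nimrod genes, a family of phagocytosis receptors and secreted relatives, were higher in glands. Of 23 measured genes of the haemocyte surface and phagocytosis list 8 were higher in glands and 4 in Kc cells, with a median of 0.42. NimB3 was 12.32, 12.38 and 12.17 in glands and 3.88 and 3.93 in Kc cells (8.38, adjusted p = 8.99e-12). NimB4 (6.94), NimC2 (6.86) and NimB2 (6.62) had similar differences. The annotation places NimA, NimB1, NimB2, NimB3, NimB4, NimB5, He, NimC1, Cyp28a5 and NimC2 in this order among measured genes on 2L. Of these 10 genes 7 were higher in glands and 1, He, was higher in Kc cells. Cyp28a5, a cytochrome P450 gene within the run that was chosen after its values were seen, was 10.50, 10.44 and 10.17 against 3.44 and 3.68 (6.81). Kc cells had 6.53 and 6.61 for NimB5 and at most 4.29 for the other NimB genes. Dscam1 (-3.39), which encodes a receptor with many splice forms, and Tep4 (-1.49), a complement-like gene, were the other Kc-high members.

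Among 19 measured genes of haemocyte fate and melanization 5 were higher in glands and 5 in Kc cells, with a median of 0.00. Besides Hml, Kc cells had more signal for zfh1 (-2.23), a transcription factor gene, for Pvr (-2.07), the receptor gene for PDGF- and VEGF-like factors, and for PPO3 (-2.05), a phenoloxidase gene. Pvr was 11.91 and 11.84 in Kc cells against 9.80, 9.80 and 9.82 in glands. On the gland side stood atilla, a surface marker of lamellocytes, with 9.47, 9.37 and 9.18 against 3.80 and 3.48 (5.70), and the Hox gene Antp (at least 3.97). Pvf1, a ligand gene of Pvr, was higher in glands (1.35). The factors lz and gcm of blood cell fate lay at or close to background in both groups (-0.11 and 0.03, adjusted p = 0.57 and 0.935).

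Basement membrane genes were divided by molecule. Of 22 measured members 9 were higher in glands and 6 in Kc cells, with a median of 0.30. trol, the gene of perlecan, was 12.34, 12.38 and 12.39 in glands and 4.42 and 4.34 in Kc cells (7.99, adjusted p = 2.94e-12). Of its other 7 probe sets 4 had the same call and 3 were not called. The clotting gene fon (6.16), the integrin gene if (at least 5.53) and the nidogen gene Ndg (3.17) were also higher in glands. The laminin subunit genes LanB1 (-3.09) and LanB2 (-2.13) were higher in Kc cells, and LanB1 was 11.83 and 11.79 there against 8.69, 8.82 and 8.64. Ppn, a proteoglycan-like matrix gene made by haemocytes, was 10.63 and 10.72 in Kc cells against 5.10, 4.57 and 4.84 in glands (-5.84). The collagen IV genes were not called. Col4a1 was 11.26, 11.15 and 10.71 in glands against 10.94 and 10.86 in Kc cells (0.14, adjusted p = 0.504), and vkg (-0.68) missed the 2-fold limit.

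Most of the immune effector genes that were called were higher in glands. Of 20 measured members of the list of immune peptides and recognition 11 were higher in glands and 1 in Kc cells, with a median of 1.51, and 8 were not called. The summed intensity of the list was 4001 to 6326 in glands and 1796 to 1862 in Kc cells. The antimicrobial peptide gene Drs was 10.30, 10.13 and 9.81 in glands and 4.54 and 4.84 in Kc cells (5.39, adjusted p = 1.05e-08). Mtk was 8.97, 10.64 and 9.73 against 3.48 and 3.63 (6.23), and DptB was 8.29, 9.80 and 8.55 against 4.51 and 4.60 (4.33). The gland arrays lay above the Kc arrays in each case, although array b stood out for Mtk and DptB. CecB reached 8.93 in gland array b only, with 4.70 and 6.07 in arrays a and c and 4.96 and 4.88 in Kc cells, and was not called (1.65, adjusted p = 0.183). PGRP-LE, a sensor of bacterial cell wall, was the Kc-high member (-1.07), a call that quantile normalization removed, as it did that of tub below. The signalling genes behind these effectors were mostly not called, with 3 of 19 higher in glands and 2 in Kc cells and a median of 0.03. pirk (2.56), a negative regulator of Imd signalling, the receptor gene Tl (2.30) and Tab2 (2.19) were higher in glands, and key (-1.73) and tub (-1.06), an adaptor gene of Toll signalling, in Kc cells. Rel, the NF-kB factor of the Imd pathway, was 9.92, 10.27 and 10.17 against 10.43 and 10.51 (-0.35).

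Of 27 measured genes of epithelial junctions and polarity 15 were higher in glands and 2 in Kc cells, with a median of 1.64. sdt and crb encode partners that set the apical membrane. crb was 10.05, 9.71 and 10.68 in glands and 6.16 and 6.43 in Kc cells (3.85), and sdt was 9.60, 9.69 and 9.84 against 4.64 and 4.75 (5.02). None of the other 5 probe sets of sdt was called, at levels up to 5.36. l(2)gl, a polarity gene known as a tumour suppressor, was at background in Kc cells with 2.86 and 2.85 and at 9.19, 9.24 and 9.02 in glands, at least 5.60 higher. bou (4.91), a gene of septate junctions, followed. cora, also of septate junctions, was 8.19, 8.00 and 8.13 in glands and 9.87 and 9.81 in Kc cells (-1.73), against the direction of most junction genes. shg, the gene of E-cadherin, was low in both, with 4.48, 4.58 and 4.46 in glands and 5.34 and 5.50 in Kc cells (-0.91, adjusted p = 0.000304).

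Innexins form the gap junctions of flies. Of 7 measured innexins 3 were higher in glands and none in Kc cells, namely ogre (4.09), Inx3 (3.39) and Inx2 (2.87), with a median of 0.11. Inx2 was 8.61, 8.81 and 8.67 in glands and 5.74 and 5.92 in Kc cells. The other 4 innexins had levels of at most 4.13 in every array.

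Among 5 measured Hox genes and cad, Antp and Scr were higher in glands and Dfd was higher in Kc cells. Antp was 7.10, 7.73 and 7.75 in glands and at background in Kc cells at 3.01 and 2.88, although its other 2 probe sets were not called, at levels of at most 3.37. Dfd, the Hox gene of head segments, was 7.10 and 7.03 in Kc cells against 3.53, 3.40 and 3.71 in glands (-3.52, adjusted p = 1.52e-08). The counts were 3 higher in glands, with cad among them, and 1 in Kc cells. The call of cad rests on the fitted value against background, since its bound of 0.77 is below a 2-fold difference, as are those of the called genes Pgant2, her, up and ChAT in other lists.

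Dosage compensation and sex determination genes were also divided, with 5 of 12 higher in glands and 3 in Kc cells and a median of 0.26. msl-2, which is limiting for dosage compensation of the male X chromosome, was 6.86, 7.05 and 6.63 in glands and 5.01 and 4.60 in Kc cells (2.05). mle (2.35), the helicase gene of the same complex, and dsx (at least 2.59) were higher in glands too. Sxl, the switch gene of female development, was above background in both, with 9.00, 9.44 and 9.48 against 8.49 and 8.44 (0.84). msl-3 gave opposite answers, since the probe set of highest level was lower in glands (-1.02) and its other probe set was higher there (1.41), so no direction can be given for the gene. fru (-2.96) and tra (-1.12) were higher in Kc cells, and quantile normalization removed the call of tra (-0.87).

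Of 12 measured genes of glycolysis and lactate 6 were higher in glands and none in Kc cells, with a median of 1.01. The list holds 15 genes, and Ldh, the lactate dehydrogenase gene, PyK and Gapdh2 were not measured. Ald1, the aldolase gene, was 11.88, 11.93 and 11.87 in glands and 7.55 and 7.57 in Kc cells (4.33, adjusted p = 1.72e-10), and its 1 other probe set was not called, at a level of 9.21. The glucose transporter gene Glut1 (1.74), Tpi (1.61) and Gpdh1 (1.58) had smaller differences. Of 11 genes of the citric acid cycle 4 were higher in Kc cells and none in glands, with a median of -0.35. They were SdhB (-2.10), Idh3b (-1.90), Idh3a (-1.62) and mAcon1 (-1.59), and SdhB was 11.66 and 11.57 in Kc cells against 9.59, 9.48 and 9.46.

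Genes of the fat body, the larval organ of storage that lies against the glands, were also among the largest differences. Of 9 measured fat body genes 8 were higher in glands and none in Kc cells, with a median of 9.21. The storage protein gene Lsp2 was 14.03, 14.09 and 14.05 in glands and 3.52 and 3.38 in Kc cells, at least 10.50 higher. Obp99b was 14.18, 14.20 and 14.17 against 3.66 and 3.51 (10.60), and the receptor gene Fbp1 for storage proteins was 12.97, 13.27 and 13.44 against 3.82 and 3.88 (9.38). Fbp2 (9.44) and apolpp (9.21), the lipoprotein gene of the fat body chosen after its values were seen, were also at 13.56 or more in every gland array. Yp1, a yolk protein gene of adult females, was at background in all 5 arrays (-0.19). The summed intensity of the 9 genes lay between 74653 and 78232 in gland arrays and between 1233 and 1241 in Kc arrays. Lsp2, Obp99b, Fbp2 and apolpp carry much of that sum and lie near the top of the scale, where signals may be compressed. The sum is thus not read as a measure of how much fat body RNA each gland array held. The part of adhering fat body in the gland-high genes, among them the immune peptide, Nimrod and lipoprotein genes that fat body or blood cells also express, was not tested.

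Markers of other tissues were checked in the same way. Of 13 measured muscle genes 6 were higher in glands, with a median of 0.99. The giant sarcomere protein genes sls (5.90) and bt (at least 4.77) had the largest differences. The list holds 18 genes, and Mhc, Act57B, wupA and Mef2 were among those not measured. Its measured genes include nau, the RNAi target of the gland arrays. The summed intensity of muscle genes was 1658 to 1759 in glands and 216 to 225 in Kc cells. Mlc1 was 8.03, 8.44 and 8.24 in glands against 4.25 and 4.32 (3.95). The muscle actin genes Act88F (0.29, close to background in both groups), Act79B (0.24) and Act87E (0.99) were not called. Of 11 trachea and epidermis genes 3 were higher in glands, with a median of 0.22, and the chitin-binding gene Gasp was 8.39, 8.69 and 8.91 against 2.56 and 2.81, at least 5.11 higher. obst-A (at least 1.72) lost its call without Kc array a (adjusted p = 0.0558) and without Kc array b (0.0786). The summed intensity of that list was higher in Kc cells, at 2676 in both arrays against 675 to 853, since the chitinase gene Cht2 was 11.30 and 11.30 there and 5.34, 4.74 and 5.20 in glands (-6.20).

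No midgut gene of 13 was called in limma, where 2 had an unadjusted p under 0.05 and 1, Jon66Ci (0.68), an adjusted p under 0.05. The summed intensity of the list was 241 to 301 in glands and 186 to 194 in Kc cells. Of 14 genes of neurons and glia none was higher in glands, and 4 were higher in Kc cells, with a median of -0.16. elav, which encodes an RNA-binding protein of neurons, was 8.00 and 8.08 in Kc cells against 4.46, 4.13 and 4.15 in glands (-3.80, adjusted p = 0.000212). brp, a gene of synaptic active zones, was 7.39 and 7.43 against 4.28, 4.37 and 4.25 (-3.11), and the glial gene repo stayed at background in every array. Among 11 genes of imaginal cells ap (at least 4.30) and ci (2.91) were higher in glands and ptc (-1.26) in Kc cells, with a median of 0.19, and esg, a marker of imaginal cells, was at background in all 5 arrays (0.31).

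The largest differences towards Kc cells belonged to genes outside the lists. CG14545 was 12.06 and 12.07 in Kc cells against 3.51, 3.19 and 3.15 in glands, at least 8.51 higher in Kc cells (limma adjusted p = 4.5e-11). Marf1, whose product regulates germline mRNAs, was 12.17 and 12.15 against 3.11, 4.07 and 3.85 (-8.48), and its other probe set, at 6.11, was not called. CG8301 was 11.91 and 12.01 against 3.88, 3.74 and 3.63 (-8.21). Glands were at or close to background for all of these, and Kc cells were more than 8 above them on the log2 scale. CG10062 (-8.00), the selenoprotein gene BthD (-7.85), CG13928 (at least 7.66), Nazo (at least 7.60) and del (at least 7.30), a gene of the germline piRNA pathway, followed. Sln, a monocarboxylate transporter gene, was at least 6.88 higher in Kc cells, and the mitotic spindle gene msd1 (-7.17), the organic anion transporter gene Oatp58Dc (-7.13) and CG14696 (-7.09) completed the 12 largest of named genes. A further 2 probe sets without a single symbol exceeded the last of these.

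The contrast of glands minus Kc cells was also taken between the H1 RNAi arrays, of the same tissue and line. Its group means share no array with those compared here. For both contrasts, however, the spread of a probe set was taken from control and H1 RNAi arrays together. Calls in the H1 RNAi arrays are thus not independent of those here. Of the 155 genes described here under the rule for naming genes and called, 140 were called in the same direction there and 3 in the opposite direction. These include the largest differences, and over all 4179 called genes it was 3088 and 26. Some lists had fewer, with 4 of 12 called genes of entry into the endoplasmic reticulum and folding, 6 of 12 of transport vesicles and 8 of 20 of ribosome biogenesis called in the same direction. The contrast called 34.1% of the 11982 genes in either direction there, and 34.9% here. The difference between both contrasts passed for 85 of these 155 genes and for 3830 of the 11982 (32.0%), with no fold minimum.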

How the data were processed

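Transcripts were measured in 10 samples on Affymetrix Drosophila arrays, and the comparison uses the 3 control gland and 2 control Kc arrays. The authors deposited an intensity table on a linear scale, with 1 value for a probe set on an array, from 4.39 to 20761. RMA is the tool named by the submitters' processing notes, with no version given, and whether cells and glands were normalized together is not given in the sources used here. Log2 of the deposited intensity was taken. Of 18952 probe sets 183 Affymetrix controls were left out, and of the other 18769 the platform annotation gives 13647 a single gene symbol, 402 several and 4720 none. A gene was shown by its probe set of highest mean over the 10 arrays, and 13544 probe sets matched RefSeq (assembly Release 6) by gene number, which served for names and gene order only.

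The fit used limma 3.58.1 (lmFit, eBayes; R 4.3.3) with 4 group means over all 10 arrays, so the H1 arrays entered the spread, and the contrast was gland nau RNAi minus Kc GFP RNAi. A call needed a Benjamini-Hochberg adjusted p under 0.05 over 18769 probe sets and a 2-fold difference. Where every array of a group lay at or under the background level of 3.55, the other group's mean minus 3.55 is given as a bound ("at least"). This was done for called genes of the lists and of the ranking. Precision is limited by the few arrays. The script was tested on simulated data.

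In each direction the 12 largest differences were named among called genes. Their arrays had to show no overlap between the groups, and the call had to hold without any 1 of the 5 arrays. Up to 4 called members per direction of each of 30 lists were named, with well known members that did not pass. The cell type markers and nau were named too. The comparison, its members and the lists were chosen with earlier results of these data known. Of 692 list entries 528 were measured. The lists are those shown in the plot of gene lists. Alternatives were other normalizations, filters, thresholds, spread models and leaving out arrays.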

Additional observations from a re-analysis of the deposited data

Results flagged for a closer look

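For 9 of the genes named, the difference of glands minus Kc cells itself differed between the control arrays and the H1 RNAi arrays (limma, adjusted p of the difference under 0.05), by at least 4 on the log2 scale or with a call in the opposite direction. The values below are the difference in H1 RNAi arrays minus that in control arrays, and what lies behind them was not tested. He, the haemocyte surface gene, was -2.76 in control and 3.83 in H1 RNAi arrays, a change of 6.6 (adjusted p = 1.22e-05). The receptor gene eater was -2.75 and 2.28, a change of 5.02 (6.66e-06). Both thus had more signal in Kc cells in the control pair and more in glands in the H1 RNAi pair. Glut1 went the other way, from 1.74 to -1.18, a change of -2.92 (9.32e-05). These are the 3 genes with opposite calls.

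The other 6 genes kept their direction or lost the difference. CG14545 changed by 7.13 (from -8.78 to -1.65), Marf1 by 6.56 (from -8.48 to -1.91) and del by 4.63 (from -7.74 to -3.11). All 3 remained higher in Kc cells by a smaller margin. Among gland-high genes, Eig71Eg changed by -5.11 (from 5.25 to 0.15, adjusted p = 0.00322), Sgs4 by -5.03 (from 10.88 to 5.85) and Eig71Ea by -4.62 (from 6.82 to 2.19). For CG14545, del, Sgs4, Eig71Eg and Eig71Ea 1 control group was at background, so the fitted control difference is not exact.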

How the results depend on the processing

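The main limits are the small number of arrays, the larger 3' to 5' signal difference in glands, the top of the scale for glue and fat body genes, and the group differences in RNAi target and temperature that go with the tissue. Without the fold minimum 4057 probe sets and 2890 genes were higher in glands, and 5557 probe sets and 4239 genes in Kc cells. At 4-fold these counts were 1061, 866, 1481 and 1171. Over the other alternatives every count stayed within 1.5 times that reported, with 1727 and 2221 genes under quantile normalization and 1509 and 2680 genes with the replicate block, in the order glands and Kc cells. Leaving out each of the 5 arrays gave 1468 to 1528 genes and 1859 to 1917 probe sets higher in glands, and 2632 to 2696 genes and 3295 to 3375 probe sets higher in Kc cells. Deviations of arrays with the same letter correlated with r = 0.0098 for a and -0.0080 for b. With only 2 Kc arrays, whose deviations mirror each other, these are not separate checks. They cannot decide whether the letters pair the samples.

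Of the genes named, 117 kept direction and call under all 17 alternatives and 39 did not under at least 1. The difference of msl-3 reversed to 0.20 with the median of its probe sets, and that of nau to 0.0683 under quantile normalization, where neither passed. With the median of the probe sets Antp (0.45), Hr4 (0.27), fzy (-0.25), sdt (0.27) and cac (-0.98) lost their call. Under quantile normalization C1GalTA (-0.77), PGRP-LE (-0.96), tra (-0.87), tub (-0.90) and msl-3 (-0.47) lost theirs. With 16 added to each intensity before log2, ChAT, PPO2, SuUR, cad, her, msl-3, obst-A and ptc were no longer called. Without a single array, SuUR, obst-A and msl-3 (-0.90 without gland array b) lost theirs, and SuUR also did with the replicate block (0.95). That block moved immune peptide genes higher in Kc cells from 1 to 2 and midgut genes higher in glands from 0 to 1, as did the fit of the 5 control arrays for midgut. Without gland array b, immune peptide genes higher in Kc cells were also 2. Quantile normalization made 1 replication, 1 segregation and 1 citric acid cycle gene higher in glands, raised the endocycle genes higher in glands from 2 to 4, and lowered sex determination genes higher in Kc cells from 3 to 1. Without Kc array a or gland array c the endocycle genes higher in glands were 1. With genes at background set to their bound, the list medians were 2.57 for gland transcription factors, -4.21 for mitotic genes, 0.77 for Hox genes and 0.92 for muscle, and the other list medians were the same. With every value under background raised to it, an alternative chosen after seeing the data, medians that moved by over 0.1 were those of glue genes (9.50), the ecdysone cascade (0.11), the Eig71E family (0.02), mitotic genes (-4.21), Hox genes (0.77) and imaginal cells (0.05).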
